A study of Mus musculus with 8 samples.

Results

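Methylation was mapped along Met, Nsd1, Vps37b, Oprd1, Mapk15 and Copg2, genes that the study had named as candidates for methylation that differs between the parental alleles. The genes were selected by name from that list, and every CG in the gene body with 2 kb on each side was read from the counts of each mouse. They are 6 of 22208 protein-coding genes found in the annotation, and they held 214 of the 532195 CpGs that had at least 10 reads in at least 6 mice. The study had picked them from these same libraries by a likelihood test for runs of CpGs whose reads split into a methylated and an unmethylated pattern. Such a run has an intermediate level on the whole. A high number of intermediate CpGs in these genes is therefore a description and not independent evidence. The study's test used windows of 10 consecutive CpGs, and a region had to be found in at least 6 samples. The runs of intermediate CpGs mapped here follow another rule and were not shown to be the study's regions. The study also reported differential methylation of these genes, except Copg2, by bisulfite sequencing of clones. For Met it reported imprinting by RNA-seq too. Copg2 was also covered by RNA-seq but missed the study's threshold, which the study named as a possible case of too little power.

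Reduced representation bisulfite sequencing (RRBS) reads methylation at single cytosines near CCGG sites, where the enzyme MspI cuts. It was applied to liver DNA of 8 mice that were 16 weeks old and had been fasted for 16 h. The groups were B6 (C57BL/6J), DBA (DBA/2J), BXD (F1 mice with a B6 mother and a DBA father) and DXB (F1 mice with a DBA mother and a B6 father), each with 1 female and 1 male. Mice of an inbred strain should carry the same sequence on both chromosomes, though the library labelled B6 male held reads of both strains, and whole liver was used, so the DNA came from a mixture of cell types.

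Most CpGs of the mammalian genome are methylated, while CpGs clustered at start sites are mostly free of methylation. At an imprinted gene 1 parental copy is methylated and the other is not, so bulk DNA reads as an intermediate level along a run of neighbouring CpGs. Cells of a mixed tissue that differ in methylation also give an intermediate level, and counts that are not sorted by chromosome cannot tell these cases apart. Met is the receptor tyrosine kinase for hepatocyte growth factor, and Nsd1 is a histone methyltransferase. Vps37b is a subunit of the ESCRT-I complex, which sorts membrane proteins for degradation. Oprd1 is the delta opioid receptor, Mapk15 is an atypical MAP kinase, and Copg2 is a subunit of the coatomer coat of transport vesicles, is itself known as an imprinted gene and neighbours the imprinted gene Mest.

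A CpG was called intermediate where its median level over the mice lay from 25% to 75%. A stretch was 3 or more consecutive intermediate CpGs at most 300 bases apart. The sequences of 5 stretches are shown because the results turn on them and because they show how differently the CpGs are spaced. All are from the forward strand of mm9 (NCBIM37), with the CpGs counted in the stretch in capitals and CpGs left out of it, for lack of reads or for a median outside 25% to 75%, in lower case. A few flanking bases are shown on each side, so the coordinates in this paragraph are those of the sequences and not of the stretches. The Met stretch lies in an intron (shown at chr6:17416466-17416531). The stretch of Nsd1 nearer to its start site lies in an intron too (shown at chr13:55311483-55311520). The Oprd1 sequence is the densest part of its longest stretch, in a coding exon at chr4:131669769-131669856. The Mapk15 stretches are shown at chr15:75828076-75828140, in a coding exon, and at chr15:75828264-75828439, across the end of a coding exon and the following intron. Oprd1 is read from the reverse strand, and the other genes shown are read from the forward strand.
Met 1: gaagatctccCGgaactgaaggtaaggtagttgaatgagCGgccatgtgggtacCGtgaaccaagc
Nsd1 1: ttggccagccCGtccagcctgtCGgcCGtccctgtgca
Oprd1 1: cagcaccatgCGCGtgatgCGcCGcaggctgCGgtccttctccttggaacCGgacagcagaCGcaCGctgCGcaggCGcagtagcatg
Mapk15 1: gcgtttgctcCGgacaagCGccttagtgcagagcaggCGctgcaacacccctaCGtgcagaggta
Mapk15 2: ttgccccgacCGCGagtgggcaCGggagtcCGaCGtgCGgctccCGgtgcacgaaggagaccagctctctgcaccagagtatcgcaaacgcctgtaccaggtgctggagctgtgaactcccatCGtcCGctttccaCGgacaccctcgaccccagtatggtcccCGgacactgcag

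The libraries differed in depth and in how well they matched their labels. They held between 37522700 and 108090251 reads summed over CG sites. The DBA male was read thinly at Met, with 9 CpGs at 10 reads against 42 to 68 in the other mice, and had the fewest such CpGs at Vps37b (33) and Oprd1 (42) too, though not at Nsd1, Mapk15 or Copg2. It was left out of a stretch's level where it lacked reads. Among reads that the authors sorted to a strain by a SNP, the library labelled B6 male gave 83.5% B6 calls on the autosomes, against 99.7% in the B6 female and 0.930% or less in the DBA mice. To check the tissue, CpGs within 1 kb of the start sites of marker genes were read, and the defining hepatocyte gene Alb had none. The hepatocyte factor Hnf4a was methylated at 37.5% and the hepatocyte gene Fgb at 27.5%, against 91.0% at the leukocyte gene Lck and 12.1% at the endothelial gene Kdr (mean of the mice).

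The mismatch of the library labelled B6 male was unequal over the 6 genes. Within 1 Mb of Vps37b, 99.4% of its 3403 sorted calls were B6 (95% exact binomial interval 99.1% to 99.7%), and near Oprd1 80.9% of 3228 were. At single CGs around Oprd1 the share varied, with 129 of 132 reads at the nearest one on the higher side, 154 of 314 at the next and 17 of 43 at the nearest on the lower side. Near Met the share was 46.0% of 663 calls, with only DBA reads at the nearest well covered CG on either side. Near Nsd1 it was 3.99% of 2178 calls, near Copg2 0.103% of 1943, and near Mapk15 0 of 7, where the exact interval reaches 41.0%. At the nearest well covered CG on either side of Mapk15, 1817 kb and 2174 kb away, 1 of 86 and 2 of 95 of its sorted reads were B6, and at the next one on the lower side, 2154 kb away, 16 of 16 were. Most results that use this mouse as a B6 parent are given with and without it where another B6 mouse allows, but the comparison of the male parents rests on it alone. The cause of the mismatch was not tested. Intervals here cover counting error only, since amplified reads are not independent molecules and neighbouring calls can share a read.

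**Figure D1:**
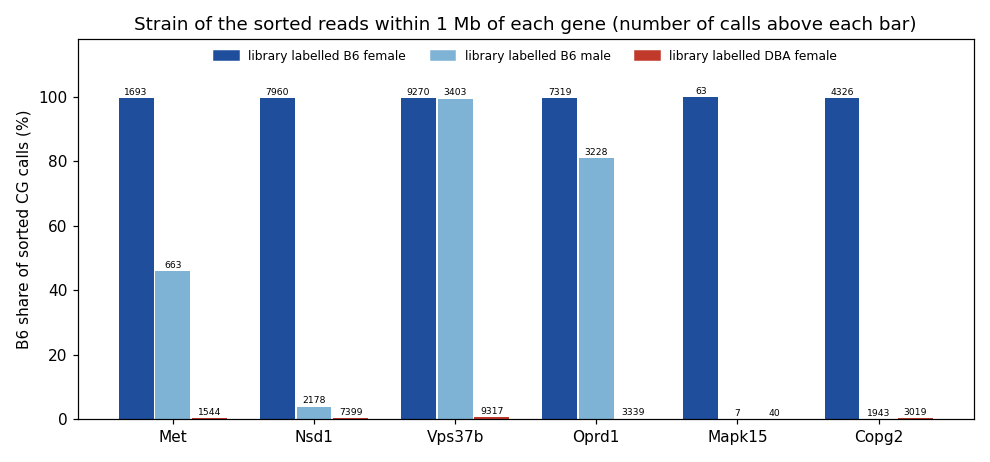
Bars show the share of B6 calls (percent, from 0) among calls of CG sites on reads sorted to a strain, within 1 Mb of each gene, in the libraries labelled B6 female, B6 male and DBA female. The number of calls stands above each bar, and the bars of the library labelled B6 male run from 99.4% at Vps37b to 0 of 7 calls at Mapk15.

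Intermediate CpGs made up 83 of the 214 CpGs of the 6 genes, or 38.8%, against 14.2% of all CpGs measured. Of these, 61 lay in 10 stretches, and 4.53% of all CpGs measured lay in a stretch. At least 1 stretch was found in 5 of the 6 genes, against 18.1% of the 16043 protein-coding genes with 3 or more CpGs measured. Among the study's other candidates, 62 of 91 gene records with 3 or more CpGs measured had a stretch, and among 8 genes long known as imprinted (H13, Snrpn, Mest, Peg10, Zrsr1, Airn, Gnas and H19) 7 had a stretch. H19 had 6 CpGs measured and no stretch. No test was run on these counts, since the candidates were picked from the same data.

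The 10 stretches had no common place in the genes. There were 6 in introns, 1 in a coding exon, 2 across a coding exon and an intron, and 1 in a 3′ UTR. None overlapped another annotated gene. Their density of CpGs ran from 3 CpGs within 150 bases on either side of the middle of the Met stretch to 31 at the stretch of Nsd1 nearer to its start, with a median of 8 over all 6219 stretches. Only 1.24% of those stretches held 10 CpGs or more, and 2 of the 10 stretches here did, at Oprd1 (15 CpGs) and Mapk15 (11 CpGs). For 6 of the 10 stretches no CpG was measured within 1 kb on at least 1 side, so that this edge was not mapped. At the CpGs of the stretches, the spread of the mice over that expected from counting reads had a median ratio of 4.12, against 2.11 at the CpGs of all stretches. The SD over mice itself differed less, with a median of 10.7 points here and 9.73 points at the CpGs of all stretches.

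**Figure D2:**
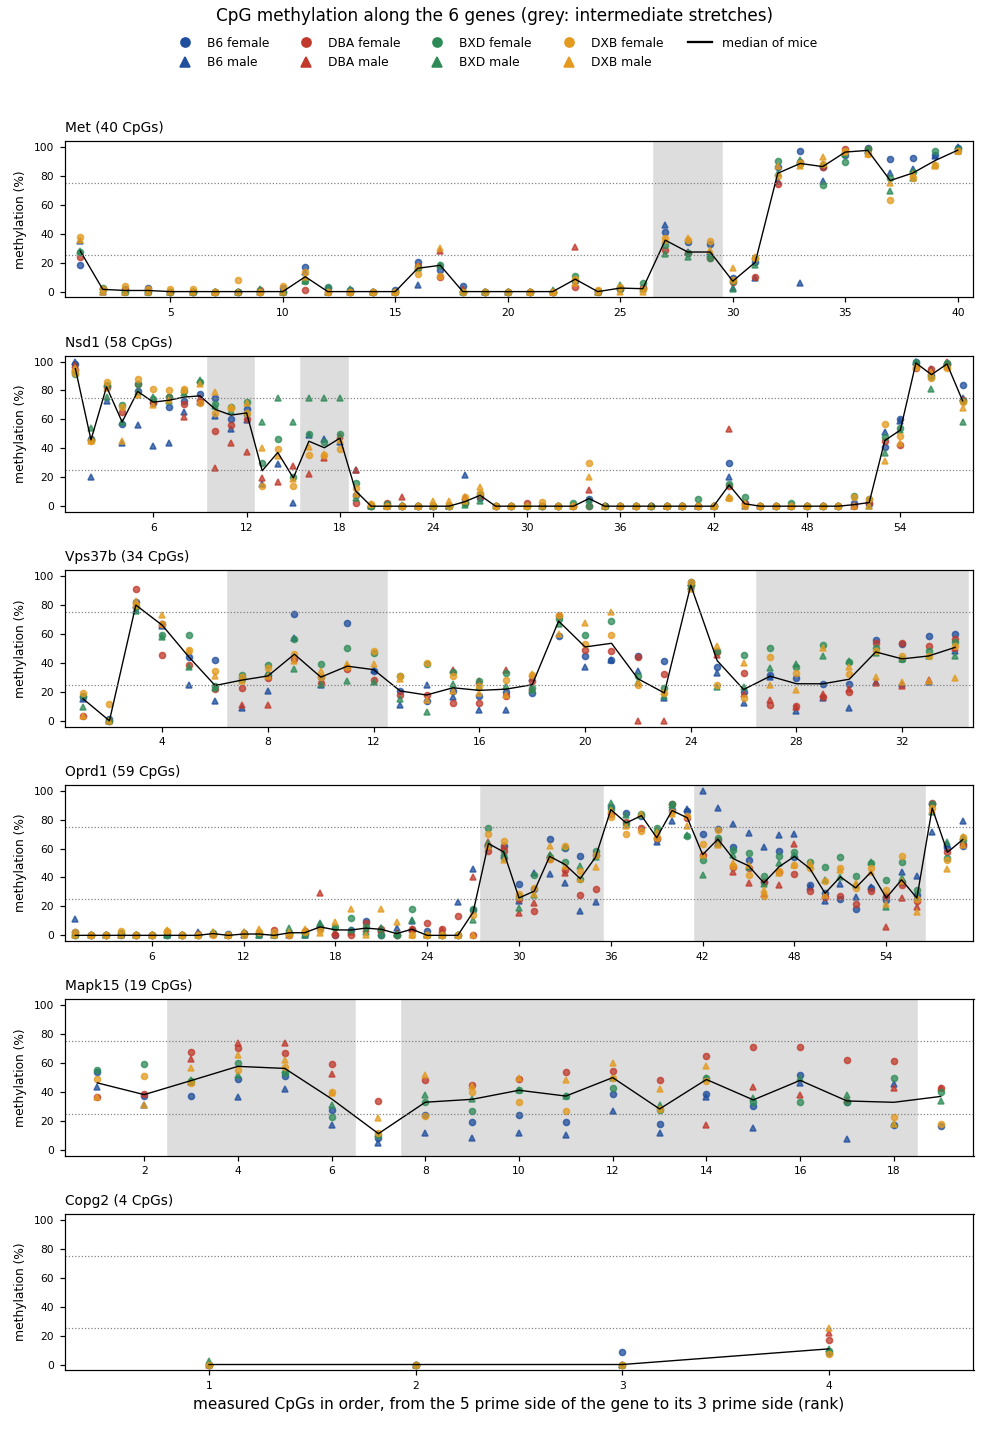
Methylation level (percent) of each measured CpG in each mouse, with CpGs in order from the 5′ to the 3′ side of the gene, so that the horizontal axis is a rank and not a distance. Symbols are single mice, the line is the median of the mice, grey bands are the intermediate stretches and dotted lines mark 25% and 75%. Met goes from near 0% through a stretch of 3 CpGs and 2 lower ones to over 75%, Mapk15 is intermediate at 18 of the 19 CpGs measured, and the 4 CpGs of Copg2 lie at 0% to 10.8%.

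Met (ENSMUSG00000009376.8, chr6:17413800-17523980, forward strand) was free of methylation at its start, intermediate in a short piece of an early intron and methylated farther in. The 26 CpGs from 328 bases before the start site to 679 after it had medians from 0% to 28.1%, and 25 of them lay below 25%. Another 5 CpGs followed at 2.68 to 2.91 kb, of which the first 3 formed the stretch (chr6:17416476-17416521, 46 bases, 1 MspI fragment). Beyond it, 9 CpGs around 20 kb and 48 kb from the start site had medians of 76.8% or more. Around 48 kb neither DBA mouse had a read. At position 17433483, around 20 kb, the library labelled B6 male read 5.88% (17 reads), and the other mice covered there read 86.7% to 97.5%. The CpGs next to the stretch on its downstream side had medians of 7.23% and 20.3%, so it did not border on methylated CpGs among those measured.

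The Met stretch read 36.2% in the B6 female, 33.6% in the library labelled B6 male and 26.1% in the DBA female. It read 27.6% in the BXD female, 25.4% in the BXD male, 35.9% in the DXB female and 33.9% in the DXB male, with 43 to 166 reads behind each CpG. The mean was 31.2% ± 4.71 (SD, n = 7), with the DBA male not covered. Both BXD mice lay near the DBA female and both DXB mice near the B6 female. How many of all stretches split in this way was not counted, and the crosses were not tested at Met, so nothing is read from it. At each of the 3 CpGs the B6 female was above the DBA female, and so was the library labelled B6 male, whose nearest sorted reads were DBA. The ratio of the spread of the mice to that expected from counting reads was 2.20 at the first CpG, 0.967 at the next and 0.871 at the last, against a median of 2.11 over the CpGs of all stretches. The mean was the lowest of the 10 stretches. The 4 F1 mice averaged 30.7% and the 3 parents 32.0%, a difference of -1.30 points (two-sided exact permutation test, p = 0.743; the smallest p this design allows is 0.0286). It was -0.475 points without the library labelled B6 male (p = 0.733, same exact test with 4 against 2 mice).

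Nsd1 (ENSMUSG00000021488.6, chr13:55311143-55419686, forward strand) had methylated CpGs around its annotated start site and unmethylated ones farther into the gene. The measured CpGs up to 328 bases after the start, and the 2 before it, had medians from 45.8% to 95.03%. The stretch nearer to the start (chr13:55311493-55311510) and the next one (chr13:55311614-55311632) followed, and the 15 CpGs from 1460 to 1774 bases had medians of 0% to 10.7%. Of the 21 CpGs from 2793 to 3494 bases, 19 lay below 25%, and the last 2, in a coding exon, were at 45.3% and 52.6%. The 4 CpGs farther in, at 59.6 to 64.8 kb, were at 72.9% to 99.02%.

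The stretch of Nsd1 nearer to its start read 67.5% in the B6 female, 58.3% in the library labelled B6 male, 56.0% and 36.0% in the female and male DBA mice. It read 70.1% in the BXD female, 66.7% in the BXD male, 65.5% in the DXB female and 72.8% in the DXB male. The mean was 61.6% ± 11.8 (SD, n = 8), with 15 to 85 reads at each CpG. The F1 mice lay close together and the parents reached lower, down to the DBA male. The F1 mice averaged 68.8% ± 3.34 (SD, n = 4) and the parents 54.5% ± 13.3 (SD, n = 4), and this difference of 14.3 points had p = 0.0857 in the two-sided exact permutation test, where 0.0286 is the smallest p possible. Without the DBA male it was 8.16 points (p = 0.114, exact test), without the B6 female 18.7 points (p = 0.0286, exact test) and without the library labelled B6 male 15.6 points (p = 0.0857, exact test). With those of Met, 10 comparisons of this kind were made over the genes, and the p-values are not adjusted for their number. Over all stretches measured, the difference had a median of 2.50 points, and 64.6% of them were higher in the F1 mice. There each mouse was averaged over whichever CpGs had 10 reads in it.

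The other Nsd1 stretch had 10 reads in 6 mice only and varied widely. It read 46.7% in the library labelled B6 male, 34.7% in the DBA male, 48.1% in the BXD female, 36.9% in the DXB female, 40.9% in the DXB male and 75% in the BXD male, with 12 to 46 reads at each CpG. The BXD male stood above the other 5 mice, and the rest overlapped. Nsd1 also held the only CG of the 6 genes with sorted reads in any library, on the reverse strand at position 55375973 of chromosome 13, in an intron. All 24 sorted reads of the library labelled B6 male at this CG were DBA, and 18 of them were methylated. In the B6 female 65 of 78 sorted reads were methylated (83.3%), and in the DBA female 19 of 26 (73.1%). The DBA male had 1 sorted read. In the BXD male, 29 of 52 reads from the maternal B6 chromosome were methylated there (55.8%, exact binomial interval 41.3% to 69.5%) and 40 of 66 from the paternal DBA chromosome (60.6%, 47.8% to 72.4%). The intervals overlap, and 1 mouse gives no replicate check. None of the CGs of the 6 genes had the 10 sorted reads in all 8 chromosome sets that the comparison of maternal and paternal chromosomes needed, so for these genes that comparison was not possible with sorted reads. Across the genome only 9259 CG sites could be tested so. The edgeR test called 0 of them between maternal and paternal sets (0.0% called), and 235 (2.54%) had an unadjusted p under 0.05. It called 7 of 13100 sites with at least 4 sorted reads in each set and 1 of 9054 without the BXD female, and no CG of the 6 genes was tested in either.

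Vps37b (ENSMUSG00000066278.5, chr5:124454650-124482269, reverse strand) was low at the 2 CpGs nearest to its start site, with medians of 0% and 15.2%, and mixed over the rest. Its 34 CpGs included 21 intermediate ones, 11 below 25% and 2 above 75%. The stretches lay in an intron 5662 to 6012 bases from the start site (chr5:124476257-124476608, 6 CpGs) and in the 3′ UTR (chr5:124454755-124455086, 8 CpGs). In both, the flanking CpGs were low or intermediate, at 17.8% to 44.2% within 1 kb, so neither stretch bordered on CpGs above 75% there.

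The 3′ UTR stretch of Vps37b read 44.7%, 36.8%, 46.2% and 42.7% in the females of B6, DBA, BXD and DXB. In the males it read 24.9% in the library labelled B6 male, 24.8% in the DBA male, 42.3% in the BXD male and 28.3% in the DXB male. Of the 4 males, 3 lay below all 4 females and the BXD male lay within their range. Within each group the female read higher than the male. Females averaged 42.6% ± 4.16 and males 30.1% ± 8.32 (SD, n = 4 each), a difference of 12.5 points with p = 0.0571 in the two-sided exact permutation test. That misses the threshold of 0.05. The test shuffled the mice over all groups and did not keep the female and male of a group paired. Without the BXD male the difference was 16.6 points (p = 0.0286, exact test), and without the library labelled B6 male it was 10.8 points (p = 0.114, exact test). The F1 mice averaged 39.9% and the parents 32.8%, a difference of 7.10 points where the exact permutation test gave p = 0.229, and without the library labelled B6 male it was 4.46 points (p = 0.514, exact test).

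The intronic stretch of Vps37b read 44.6% in the B6 female, 30.8% in the library labelled B6 male and 30.8% in the DBA female. In the F1 mice it read 43.8% (BXD female), 29.5% (BXD male), 38.0% (DXB female) and 35.3% (DXB male), for a mean of 36.1% ± 6.25 (SD, n = 7). The parents and the F1 mice overlapped. The median ratio of spread to counting error was 5.25 here and 4.59 in the 3′ UTR.

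Oprd1 (ENSMUSG00000050511.1, chr4:131666641-131700401, reverse strand) was free of methylation at its start site and held 3 stretches. The 27 CpGs from 23 bases before the start site to 327 bases after it had medians from 0% to 15.97%. A stretch of 4 CpGs followed in the intron at 747 to 909 bases (chr4:131699492-131699655), another of 4 CpGs at 3.38 to 3.56 kb (chr4:131696846-131697018), and the longest, with 15 CpGs, at 30.4 to 30.8 kb (chr4:131669616-131670007). The 4 CpGs at 7.08 to 7.33 kb, between the second and the longest stretch, were methylated at 67.5% to 86.9%. Toward the start site, the nearest stretch stood against CpGs at 0% to 15.97%. The longest stretch stood against 2 CpGs at 81.2% and 86.3% on its upstream side, and 0.354% of all stretches held 13 CpGs or more. Between its bounds lie 29 CpGs, and those not counted had too few mice with 10 reads. Among them, the CGs from position 131669666 to 131669757 read 7.27% to 22.2% in the B6 female and 7.92% to 28.2% in the DBA female. In these 2 mice the longest stretch was thus interrupted by lower CpGs.

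The longest Oprd1 stretch read 47.3% in the B6 female, 61.0% in the library labelled B6 male, 40.9% and 35.7% in the female and male DBA mice. It read 50.7% in the BXD female, 43.7% in the BXD male, 43.9% in the DXB female and 40.03% in the DXB male. The mean was 45.4% ± 7.77 (SD, n = 8), over the 9 of its 15 CpGs that had 10 reads in all mice. Both values labelled B6 lay above both DBA values, and the F1 mice lay between 40.03% and 50.7% and overlapped both parent strains. The highest value came from the library labelled B6 male, whose sorted reads around Oprd1 were of both strains. How many of all stretches had both B6 values above both DBA values was not counted. The F1 mice averaged 44.6% and the parents 46.2% (p = 0.829, two-sided exact permutation test; without the library labelled B6 male the F1 mice were 3.29 points above the parents), and females and males differed by 0.618 points (p = 0.914, same test). The difference between the sexes was 5.91 points without the library labelled B6 male (p = 0.114, exact test) and -2.36 points without the DBA male (p = 0.571, exact test, over all 15 CpGs). The CpGs counted in the stretch had medians from 25.8% to 66.5%.

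The middle Oprd1 stretch read 59.2% in the B6 female and 29.5% in the library labelled B6 male, the highest and the lowest of the mice. The DBA female read 39.4%, the F1 mice 48.8% to 54.7%, and the mean was 47.9% ± 10.2 (SD, n = 7). Without the library labelled B6 male this stretch would be ordered as B6, F1, DBA with no overlap, an order met by 7.88% of all stretches read without it, with 1 mouse for each parent strain. In the middle stretch the DBA male had 10 reads at position 131697013, where its 42.8% lay below all F1 mice. It also had them at 131697017, where its 55.4% lay above the BXD female (53.8%) and the DXB female (52.9%). The stretch nearest to the start site was the most even of the 10, at 39.6% to 49.1% in the 8 mice (44.7% ± 3.85, SD, n = 8). The B6 female read 47.9% there, the library labelled B6 male 46.4%, the DBA mice 39.6% and 41.1%, and the F1 mice 41.9% to 49.1%.

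Mapk15 (ENSMUSG00000063704.6, chr15:75824199-75829582, forward strand) held 2 stretches, and in both the mice fell by their labels in the order B6, F1, DBA without overlap, an order met in either direction by 5.81% of all stretches that could be read so. In the longer stretch this rests on the DBA female alone, since the DBA male could not be read over it and lay above all F1 mice at only 1 of the 5 CpGs where it had 10 reads. Of the 19 CpGs of Mapk15 with 10 reads in 6 mice 18 were intermediate, all of them between 2.26 and 5.10 kb from the start site, and no CpG nearer to its start site had 10 reads in 6 mice. Over all CpGs of the gene with 10 reads in the B6 female itself, 22 of 75 were intermediate and 45 lay below 25%. In that mouse, 5 CGs between positions 75824448 and 75824533 read 4.84% to 17.7%, the next one at 75824542 read 45.2%, and those at 75825305 and 75825316 read 97.2% and 92.5%, so Mapk15 was not intermediate over its whole length. The stretch of 4 CpGs lay in a coding exon (chr15:75828086-75828130), and the stretch of 11 CpGs lay farther downstream, in coding exon and intron sequence (chr15:75828274-75828429). None of the other 7 stretches that could be read so had this order.

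The stretch of 4 CpGs in Mapk15 read 41.4% in the B6 female, 35.8% in the library labelled B6 male, 66.1% and 65.8% in the female and male DBA mice. The F1 mice read 46.0% (BXD female), 46.7% (BXD male), 49.8% (DXB female) and 56.0% (DXB male). Thus the B6 female and the library labelled B6 male, whose nearest sorted reads were nearly all DBA, lay below all F1 mice and both DBA mice above them. At each of the 4 CpGs both libraries labelled B6 were below both DBA mice. With DBA highest, this order was met by 3.05% of the 4028 stretches that could be read so, and with B6 highest by 2.76%. The mean was 51.0% ± 10.96 (SD, n = 8).

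The stretch of 11 CpGs in Mapk15 read 24.9% in the B6 female, 20.5% in the library labelled B6 male and 53.2% in the DBA female. The F1 mice read 38.6% (BXD female), 37.6% (BXD male), 34.1% (DXB female) and 46.4% (DXB male), and the DBA male lacked reads at most of these CpGs. The mean was 36.5% ± 11.4 (SD, n = 7), over 8 of the 11 CpGs. The B6 female was below the DBA female at all 11 CpGs. The DBA male did not follow the DBA female where it was read. At 5 of the CpGs it had 10 reads and read 17.1% to 43.8%, against 61.5% to 71.4% in the DBA female. At position 75828308 its 17.1% lay below all other mice, among them the B6 female at 38.7% and the library labelled B6 male at 36.9%. It was above all F1 mice that could be read only at 75828387, where these were the BXD mice alone. Leaving out a mouse cannot break such an order. Without the library labelled B6 male it rests on 1 B6 mouse and was met in either direction by 12.3% of 4680 stretches and with DBA highest by 4.42%. That library had the lowest level of all mice in both stretches, while its few sorted reads near the gene were DBA, and the part of this mismatch in the result was not tested. Over the 2 CpGs with 10 reads in all 8 mice, the F1 mice differed from the parents by -1.31 points (p = 0.943) and females from males by 8.48 points (p = 0.4), both by the two-sided exact permutation test. The first of these changed sign in 6 of 11 alternatives. Over the 8 CpGs read without the DBA male the F1 mice were 6.32 points above the parents (p = 0.514) and the females 2.85 points above the males (p = 0.743), and without the library labelled B6 male as well these were 0.127 points (p = 1.0) and -4.34 points (p = 0.733), all by the exact permutation test.

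**Figure D3:**
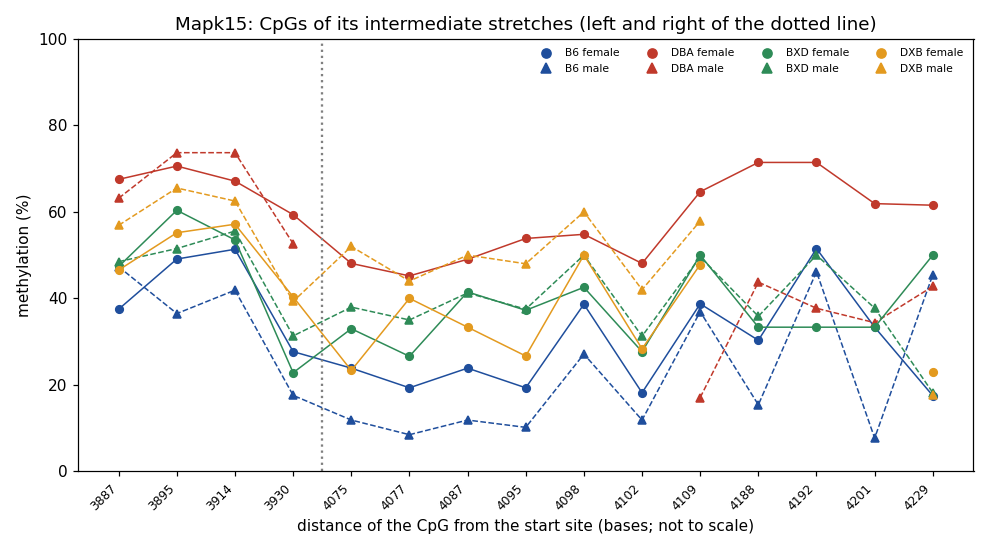
Methylation level (percent) of the CpGs of both Mapk15 stretches in each mouse, labelled by distance from the start site in bases, with the spacing not to scale. Lines join the CpGs of a mouse (solid for females, dashed for males), the dotted line parts the stretches, and the DBA female lies above the B6 female at each of the 15 CpGs.

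Copg2 (ENSMUSG00000025607.8, chr6:30697554-30846794, reverse strand) held no stretch. Only 4 of the 695 CpGs in its window had 10 reads in 6 mice, 51 to 150 bases from the start site, and their medians ran from 0% to 10.8%. Of 23 CpGs read in 4 mice or more, all within 498 bases of the start site, 19 had a median of 0% and 1 a median above 25%. The mean over all covered CpGs was 1.62% to 8.33% in the mice, with 1 CpG in the library labelled B6 male and 43 in the BXD male. Farther into the gene, 1 CpG had 10 reads in any mouse, in an intron 15936 bases from the start site. It read 99.3% in the B6 female (135 reads), 100% in the DBA female (25 reads) and 99.3% in the BXD male (142 reads), unlike the CpGs at the start site. Mest, which overlaps the 3′ end of Copg2, held a stretch of 6 CpGs at chr6:30685294-30685509 that read 43.1% ± 12.04 (SD, n = 8), and it lies outside the window of Copg2.

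**Figure D4:**
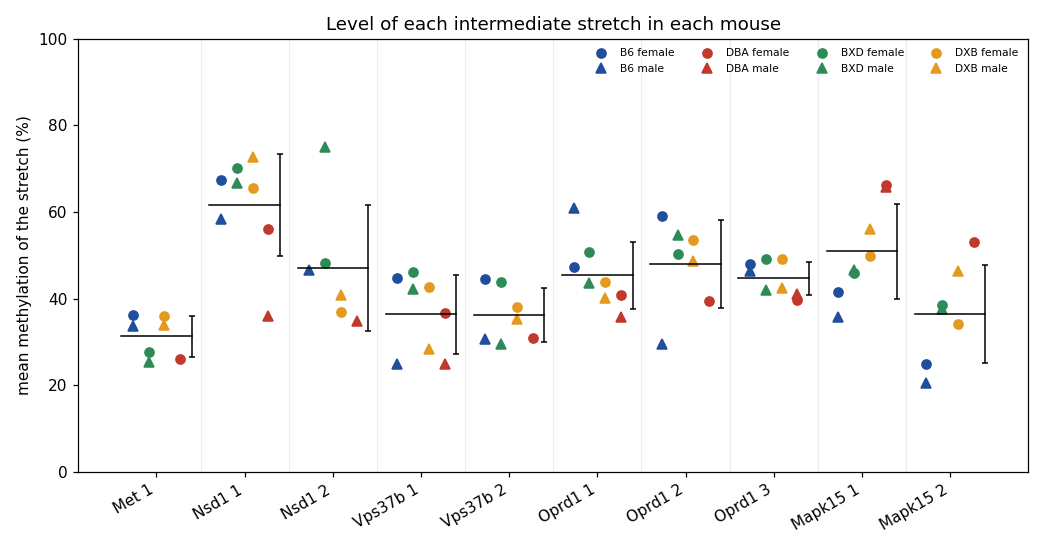
Mean methylation level (percent) of each of the 10 stretches in each mouse, with circles for females and triangles for males. Within a stretch the groups stand from left to right as B6, BXD, DXB and DBA, the horizontal line is the mean of the mice and the bar its SD. In both Mapk15 stretches the 2 libraries labelled B6 lie below and the DBA mice (in the longer stretch only the female) above all F1 mice.

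The parents were compared at each CG of the 6 genes to ask whether the strains differed. By the study's rule, levels had to lie outside each other's 95% exact binomial interval and differ by over 50 points, with at least 10 reads. In females 1 of 376 CGs was called, against 0.549% of all CG sites tested, and in males 0 of 148, against 0.423%. The called CG lies in the intron of Mapk15 at chr15:75828387 on the forward strand, within the stretch of 11 CpGs. In the B6 female 9 of 23 reads were methylated (39.1%, interval 19.7% to 61.5%), and in the DBA female 11 of 12 (91.7%, interval 61.5% to 99.8%). The intervals do not overlap, though one ends where the other begins, and there is 1 mouse on each side. With at least 20 reads, with the strands added or by Fisher's exact test over all sites, no CG of the 6 genes was called in females.

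With a difference of over 30 points in place of 50, 17 CGs of the 6 genes were called in females against 1.62% of all, 15 of them in Mapk15 and 2 in Vps37b. All 15 in Mapk15 were higher in DBA, a direction met by 0.432% of all CG sites in females, and the 2 in Vps37b were higher in B6, met by 1.19%. Mapk15 had 42 CGs tested in females, with a median difference of -24.7 points (B6 minus DBA), and 20 in males, with a median of -14.2 points. In males 14 CGs were called against 1.55% of all, of which 5 in Mapk15 were higher in DBA (0.666% of all) and 6 in Oprd1 were higher in the library labelled B6 male (0.885% of all). The nearest sorted reads of that library were nearly all DBA at Mapk15 and Nsd1 and mixed at Oprd1. At Nsd1 they included 24 reads at a CG within the gene, all of them DBA, and at the nearest CGs on either side 1 of 45 and 0 of 19 were B6. The male values at Nsd1 are therefore not read as a difference between the strains. At Mapk15 and Oprd1 it was not established that the male values compare B6 with DBA alleles. The 6 Oprd1 CGs lie within the bounds of its longest stretch, and 96 of 139 reads were methylated at the CG with the largest difference (69.1%) against 148 of 426 in the DBA male (34.7%). The median difference at Oprd1 was 17.6 points in males and 1.27 points in females, and at Met it was 0.484 points in females. Neighbouring CGs share reads, so these counts are not counts of independent events.

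**Figure D5:**
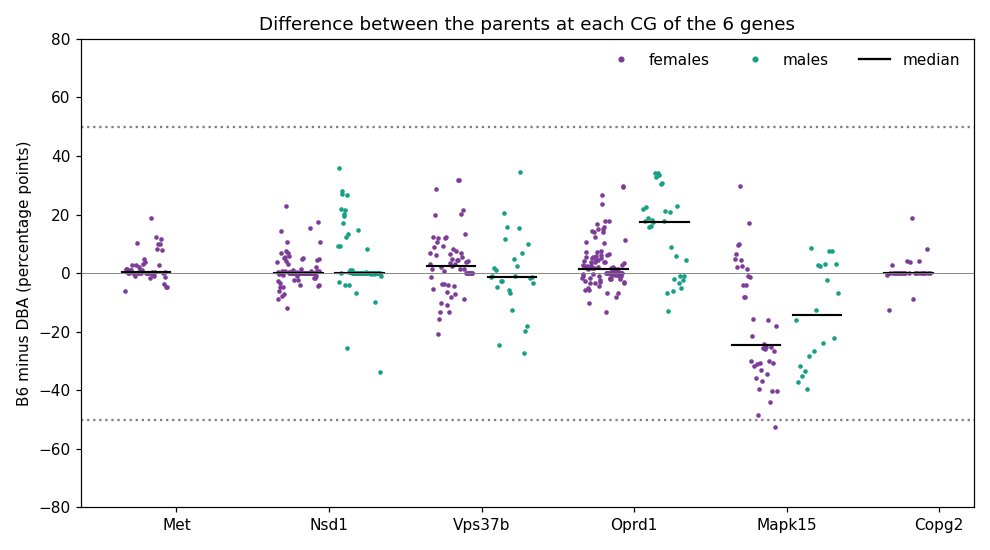
Difference in methylation between the parents (B6 minus DBA, percentage points) at each CG with 10 reads in both mice, for the females and for the males, with the median as a black line. The dotted lines mark 50 points on either side, 1 CG in Mapk15 lies beyond them, and the females of the other genes have medians within 2.52 points of 0.

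A test over replicates asked the same of the strains, the crosses and the sexes. Methylated and unmethylated counts of all 8 mice were fitted with edgeR's quasi-likelihood test at 168284 CG sites, 61 of them in the 6 genes (22 in Vps37b, 20 in Oprd1, 15 in Nsd1 and 4 in Mapk15), with Benjamini-Hochberg adjustment over all sites. B6 against DBA called 0 of the 61, against 0.386% of all, and 5 had an unadjusted p under 0.05, against 3.37% of all. The nearest sorted reads of the library labelled B6 male were nearly all DBA at Nsd1 and Mapk15 and mixed at Oprd1. At these genes it was therefore not established that the B6 group held a second B6 mouse. The number with such a p fell without the library labelled B6 male and rose without the B6 female, while the share of all sites rose in both. Each of these fits leaves 1 B6 mouse, so their counts are not read. With all mice, the lowest p was at chr15:75828129 in Mapk15, with a log2 odds ratio of -2.17 for B6 against DBA (unadjusted p = 0.00722 and adjusted p = 0.797 by edgeR). There the B6 female read 27.7%, the library labelled B6 male 17.6% and the DBA mice 59.4% and 52.6%. The F1 mice read 22.8% to 40.4%, and of these the BXD female lay between the 2 libraries labelled B6. Met and Copg2 had no CG in this fit, since none had 10 reads in all 8 mice.

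BXD against DXB, which swaps the parent of origin of the same alleles, called 0 of the 61 CGs, against 0.00475% of all, and 2 had an unadjusted p under 0.05, against 2.09% of all. Reads of both chromosomes were added, so a mark on the copy of 1 parent would give the same total in both crosses. This comparison therefore cannot show such a mark. The F1 mice against the parents gave 0 of 61, against 0.319% of all, with 7 at an unadjusted p under 0.05, against 7.59% of all, 5 of them in Vps37b and all 5 higher in the F1 mice. Without the library labelled B6 male 1 of these 61 CGs had such a p, against 4.7% of all. Without any other single mouse 2 to 9 did, against 4.31% to 10.7% of all. Females against males gave 0 of 61, against 0.592% of all sites, which include the X chromosome while the 6 genes are autosomal. Of the 61, 3 had an unadjusted p under 0.05, against 5.15% of all. These 3 were all in the 3′ UTR stretch of Vps37b and all higher in females. Without the library labelled B6 male 2 CGs had such a p, against 2.96% of all. Without either BXD mouse 6 did, against 8.51% of all. Without either DBA mouse or either DXB mouse 0 did, against 3.65% to 4.72% of all. By limma 0 CGs of the 6 genes were called in each of these 4 comparisons, against 0.213% of all for the strains, 0.133% for the sexes and 0.0% for the other two. With 2 mice a group, differences may go uncalled, and a missed call does not show equal levels.

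For each gene with a stretch, other genes with the closest levels over the mice were sought by the root mean square difference of the longest stretch. The closest to Met was Acot11, 2.63 points away over 7 mice, and the closest to Nsd1 was Esrrb, 3.51 points away over 7. For Vps37b they were Unc13d and Wbp2, which share a stretch, 3.35 points away over 7. The closest to Oprd1 was Zcchc3, 3.15 points away over 8, and the closest to Mapk15 was Ttc39b, 4.66 points away over 7. Between 2467 and 2633 genes were compared.

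The longest stretches of the 7 known imprinted genes that had one are given beside those of the candidates, as a description. Their means ran from 32.6% to 51.8% with an SD over mice of 4.63 to 15.5 points, and the 5 candidate genes ran from 31.2% to 61.6% with an SD of 4.71 to 11.8. Both stretches of Nsd1 held 3 CpGs, and the one nearer to its start, which gave the upper end of both ranges of the candidates, was taken. The other one had a mean of 47.1% and an SD of 14.7 points. The imprinted genes had 6 to 18 CpGs in that stretch and the candidates 3 to 15. Mice of the imprinted genes were averaged over whichever CpGs they had, and those of the candidates over shared CpGs. The SDs of the lists are therefore unlike measures. The median ratio of spread to counting error ran from 0.968 to 5.96 in the imprinted genes and from 0.967 to 5.45 in the candidates. The limits of 25% to 75% that define a stretch bound the levels in both lists, so nothing is read from their overlap.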

How the data were processed

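RRBS libraries of liver DNA from 8 mice were analysed from the counts that the authors deposited. Per the study's methods, reads were aligned to mm9 with BS Seeker, only reads with a single position were retained, and reads with a SNP were sorted to the B6 or DBA chromosome. For the version, trimming and duplicates, the sources used here give nothing. For each cytosine the authors deposited the number of methylated and of unmethylated reads, as raw counts for each class of reads, and the level as a fraction from 0 to 1, which was not used. Tables of the authors' own comparisons, with 12 columns of values of single mice, were not used.

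Counts of all classes were added, and levels were computed in percent. All 1469643 CG sites of the files lay in a CpG of NCBIM37, and genes came from GENCODE M1 for it. Strands of a CpG were added for stretches and kept apart for tests. The level of a stretch of the 6 genes is the mean over its CpGs with 10 reads in all 8 mice, or without the DBA male where fewer than 3 such CpGs were left, or in the mice that had them all. For the known imprinted genes and the closest genes, each mouse was averaged over whichever CpGs had 10 reads in it. The median of F1 mice against parents over all stretches was taken in that way too. Tests of F1 mice against parents and of the sexes used the CpGs with 10 reads in all 8 mice whatever their number (2 at Mapk15), and at Met 7 mice. Single values were compared by exact permutation over mice, and all CG sites by edgeR 4.0.16 and limma 3.58.1 in R 4.3.3. Limma took the log2 ratio of counts with 1 added to each. Other steps used Python 3.11.15, numpy 2.4.6, pandas 2.3.3 and scipy 1.17.1, and tests were tried on simulated data. Replicates are separate mice, 1 female and 1 male a group. All 6 genes are named, with the longest stretch of each, up to 3 called CGs in each comparison and the closest genes by level, and the other lists are given as counts. The genes and lists were chosen with earlier results of these data known. Some marker genes of the tissue check are not reported here. Alternatives were other minimums of reads, sizes of difference, run lengths, tests and leaving out each mouse.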

Additional observations from a re-analysis of the deposited data

Results flagged for a closer look

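A single mouse stood far from the others in 2 of the 25 sets of levels checked, and chance gives about 1 such set in 20. In the stretch of Nsd1 nearer to its start, the DBA male read 36.0% and the other 7 mice 56.0% to 72.8%, so that its gap to the nearest mouse was 0.544 of the whole range. In the other Nsd1 stretch, the BXD male read 75% and the other 5 mice 34.7% to 48.1%, a gap of 0.667 of the range. Both stretches had few reads, with 12 to 85 at each CpG.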

How the results depend on the processing

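In female parents, 1 CG of the 6 genes was called, and 0 with at least 20 reads, by Fisher's exact test or with strands added, and 17 with a difference over 30 points. In male parents the smaller difference gave 14 in place of 0. Stretches held 61 CpGs of the 6 genes and 4.53% of all CpGs measured. Defined anew, they held 25 with limits of 35% to 65% (1.26% of all), 40 with runs of 5 CpGs (1.44%) and 26 with runs of 10 (0.179%). They held 29 with reads in all 8 mice (3.28%) and 53 to 59 without 1 mouse (4.23% to 4.57%). Met had 0 CpGs in stretches under each of these settings but the last. Nsd1 had 0 with runs of 5 and of 10, and Vps37b had 0 with runs of 10. Without the library labelled B6 male (B6 replicate 2), 3 stretches were in the order of the strains, in place of 2; this setting was chosen after seeing the data.

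The difference of F1 mice from parents turned its direction at Oprd1 without 1 mouse (range -3.68 to 3.29 points; 3.29 without the library labelled B6 male and 0.377 without the DBA male). At Mapk15 it turned to 11.98 points with at least 20 reads (1 CpG) and 0.996 with pooled reads, to 0.127 without the library labelled B6 male and the DBA male (a setting chosen after seeing the data; females minus males was then -4.34), and ranged from -5.46 to 6.32 without 1 mouse. It was 8.16 to 18.7 at Nsd1 and 4.45 to 11.1 at Vps37b without 1 mouse. Females minus males turned at Oprd1 to -0.702 with pooled reads and ranged from -2.36 to 5.91 there, -1.15 to 11.1 at Nsd1, 10.8 to 16.6 at Vps37b and 2.17 to 13.8 at Mapk15. The cause was not tested. The edgeR comparisons called 0 CGs of the 6 genes under every alternative run. Met had no CpG with 10 reads in all mice and was tested only without the DBA male, and Nsd1 gave no value with at least 20 reads. The labels carry no replicate numbers, and with sex as a term the edgeR comparisons of strain, cross and generation called 0 of the 61 CGs too.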
